A study of Mus musculus with 12 samples.

Results

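The gene that encodes aortic carboxypeptidase-like protein (ACLP), Aebp1, and its relatives Cpxm1, Cpxm2, Cpz and Cpe were followed in bulk RNA sequencing of 10T1/2 cells. They were taken by symbol and are 5 of the 56748 genes in the count table. All 5 had a count, and 3 of them (Aebp1, Cpe and Cpxm1) passed the filter on low counts and were tested. The cells, a wild-type mouse mesenchymal line spelled CH310T1/2 in the sample records, spent 1 h in suspension and were then grown for 18 h in low serum (0.5% FBS) on hydrogels of 12 kPa that carried type I collagen (0.05 mg/ml). The 4 col1 libraries had collagen alone, the 4 col1-ACLP libraries had 30 nM recombinant mouse ACLP polymerized with the collagen, and the 4 col1-ACLP+SB libraries had the same matrix plus 5 µM SB431542, an inhibitor of the TGFβ receptor kinase ALK5. No group had SB431542 on collagen without ACLP. The recombinant ACLP was added as purified protein, and the counts are of RNA, from all transcripts of each gene together.

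These proteins belong to the N/E group of the M14 metallocarboxypeptidases. Cpe, carboxypeptidase E, trims basic residues from the ends of prohormone fragments and is best known in endocrine cells and neurons. Cpz, an active enzyme of the extracellular matrix, carries a frizzled-type cysteine-rich domain. ACLP, Cpxm1 and Cpxm2 carry a collagen-binding discoidin domain in front of a carboxypeptidase-like domain that has shown no activity on standard substrates. Loss of AEBP1 in humans causes a form of Ehlers-Danlos syndrome, a disorder of collagen-rich tissue.

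The coding sequences showed where the family is kept and where it parts. They were read from the canonical GENCODE vM39 transcripts on GRCm39, which encode 1129 residues for Aebp1, 764 for Cpxm2, 722 for Cpxm1, 654 for Cpz and 476 for Cpe. In a local alignment the ACLP protein was 57.35% identical to Cpxm2 over 687 aligned residues, 55.14% to Cpxm1 over 613, 45.65% to Cpz over 379 and 43.64% to Cpe over 401. The first set of sequences is the stretch around the motif that holds the zinc ion, with the codons of its histidine and glutamate in capitals. Both codons encode the residues of Cpe in all 5 genes. Each sequence is written 5′ to 3′ on the coding strand.
Cpe (chr8:65072526-65072561, − strand, exon 2): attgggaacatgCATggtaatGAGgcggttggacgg
Cpz (chr5:35669896-35669931, − strand, exon 5): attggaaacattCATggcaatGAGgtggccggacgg
Cpxm1 (chr2:130236093-130236128, − strand, exon 9): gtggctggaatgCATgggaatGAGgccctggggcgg
Cpxm2 (chr7:131661604-131661639, − strand, exon 9): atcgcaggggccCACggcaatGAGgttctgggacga
Aebp1 (chr11:5819434-5819469, + strand, exon 16): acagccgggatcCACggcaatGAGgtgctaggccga

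The second set covers the glutamate of Cpe that acts in catalysis, whose codon is in capitals. The aligned codon encodes the residue of Cpe in Cpz and Cpxm1 and another residue in Aebp1 and Cpxm2. Over the 10 codons shown, Cpz and Cpxm1 share 9 residues with Cpe, Aebp1 shares 5 and Cpxm2 shares 4.
Cpe (chr8:65059718-65059747, − strand, exon 6): aactgcttcgagatcactgtgGAGcttagc
Cpz (chr5:35664097-35664126, − strand, exon 9): aactgctttgagatcactgtgGAActgggc
Cpxm1 (chr2:130235072-130235101, − strand, exon 12): aattgctttgaggtcacagtgGAGctgtcc
Cpxm2 (chr7:131650799-131650828, − strand, exon 12): aactgctttgagctgtccatcTACgtgggc
Aebp1 (chr11:5820543-5820572, + strand, exon 19): aactgtctggagctctccgtaTACctgggc

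The deposited counts totalled 29246154 to 52201922 per library, and a count of 3, taken as the limit that a count of 0 allows, stood for 0.0579 to 0.106 CPM (read counts per effective library size, with TMM scaling). Every pair of replicates was further apart than sampling noise allows, at 7.49 to 19.7 for chi-square over its degrees of freedom, so none was counted as a duplicate. The col1 replicate 2 library stood apart from the rest, at 86.7 on the leading principal component where the other 11 libraries lay between -20.6 and 11.1, so the tested members and the list counts on col1-ACLP against col1 are given with and without it. All 8 mesenchymal markers were tested, and their summed level ran from 33526 to 34697 CPM with collagen alone, from 43455 to 52380 with ACLP and from 40120 to 45696 with ACLP and inhibitor. On col1-ACLP against col1, 2 of the 8 rose, Col1a1 (from 11904 to 20962 CPM) and Col1a2 (from 7307 to 11493 CPM). In the fit of all libraries 2 fell, Pdgfra (log2 fold change -0.76, adjusted p = 1.98e-10, edgeR) and Pdgfrb (-0.15, 0.024). Over all tested genes, 9.52% rose and 8.41% fell. Without col1 replicate 2 the counts were again 2 and 2, but Pdgfrb was not among those that fell. The call of Pdgfrb was lost with no filter on low counts (adjusted p = 0.0591) and without any of col1 replicates 2, 3 and 4 and col1-ACLP replicates 1, 2 and 3 (0.0520 to 0.102). Of 18 markers of other cell types, 4 were tested, with a summed level of 8.93 to 15.5 CPM over the 12 libraries. Cd68, a macrophage marker, was the highest at 8.08 CPM. It was the 1 of the 4 that was called on col1-ACLP against col1, where 17.9% of all tested genes were. It was lower on col1-ACLP (from 9.47 to 6.73 CPM, log2 fold change -0.49, adjusted p = 0.0284, edgeR). The call of Cd68 was lost without any of col1 replicates 2 and 4 and col1-ACLP replicates 1, 2 and 4 (adjusted p from 0.0520 to 0.116). Epcam, Myod1, Myog and Chga had no count.

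Cpe and Aebp1 made up nearly all M14 carboxypeptidase message in these cells, and the other members were close to the limit of detection. Per kilobase of gene length (FPKM, over 12 libraries), Cpe was at 612 ± 33.3 (SD), rank 32 of the 16465 tested genes, and Aebp1 at 167 ± 22.6, rank 189. Their libraries did not overlap, with Cpe between 576 and 691 FPKM and Aebp1 between 139 and 206. Cpd, a membrane-bound relative of Cpe in the trans-Golgi network, followed at 20.8 ± 1.73 FPKM. Of the FPKM sum over the 21 M14 genes followed here, Cpe made up 79.0 ± 0.71% with collagen alone, 73.1 ± 1.68% with ACLP and 74.5 ± 1.07% with ACLP and inhibitor (SD, n = 4), and Aebp1 17.2 ± 0.64%, 23.0 ± 1.61% and 21.8 ± 1.09%. Without col1 replicate 2 the shares on collagen alone were 78.7 ± 0.31% and 17.5 ± 0.25% (SD, n = 3). Of 4 markers of the endocrine and neural cells in which Cpe is best known, Chga had no count, Scg2 had 7 counts over all libraries, and Syp (100) and Chgb (165) were tested.

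**Figure D1:**
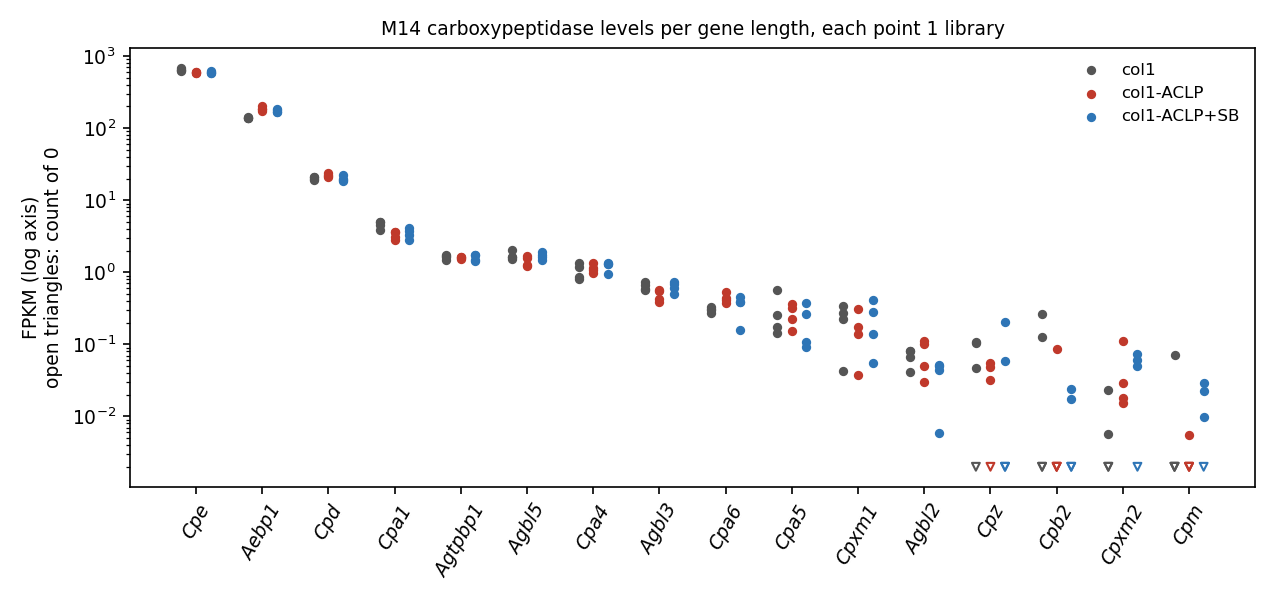
Level per gene length of 16 M14 carboxypeptidases with a count, in FPKM on a log axis, with 1 point for each of the 12 libraries and open triangles at the foot for a count of 0. Cpe (612 FPKM on average) and Aebp1 (167 FPKM) stand above Cpd (20.8 FPKM), and Cpxm1, Cpz and Cpxm2 lie at the low end.

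The next of these genes in order was Cpa1, a secreted digestive enzyme of the pancreas, at 3.77 ± 0.74 FPKM, and its libraries (2.80 to 5.01) overlapped with no neighbour's. Agtpbp1 and Agbl5, cytosolic enzymes that shorten glutamate chains on tubulin, were at 1.61 and 1.60 FPKM and were not separated by their spread. Cpa4, Agbl3, Cpa6 and Cpa5 had means from 1.14 down to 0.254 FPKM. Cpxm1 was at 0.202 ± 0.124, Cpz at 0.0544 ± 0.0600 and Cpxm2 at 0.0323 ± 0.0352 FPKM, and these 3 members overlapped with each other. Agbl2 (0.0594) and Cpb2 (0.0431) lay among them and Cpm (0.0114) below them. Cpn1, Cpa3, Cpb1, Agbl1 and Agbl4 had no count in any library.

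Aebp1 rose on collagen-bound ACLP. Its level on col1 was 563.6, 569.9, 565.8 and 578.2 CPM in replicates 1 to 4, and on col1-ACLP it was 752.2, 707.6, 738.0 and 836.9 CPM. Every col1-ACLP library lay above every col1 library, as in 10.9% of all tested genes. The means were 569 ± 6.44 and 759 ± 55.3 CPM (SD, n = 4), a log2 fold change (log2FC) of 0.41 (standard error 0.0498, 95% interval 0.31 to 0.52, adjusted p = 6.39e-07, edgeR quasi-likelihood test with Benjamini-Hochberg adjustment over all tested genes), or 33.2% more. Over all tested genes, 17.9% passed this test, 9.52% higher and 8.41% lower. In size this change stood at percentile 74.9 among all tested genes, and it did not reach the log2FC of 0.58 that the study's methods required of a differentially expressed gene.

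**Figure D2:**
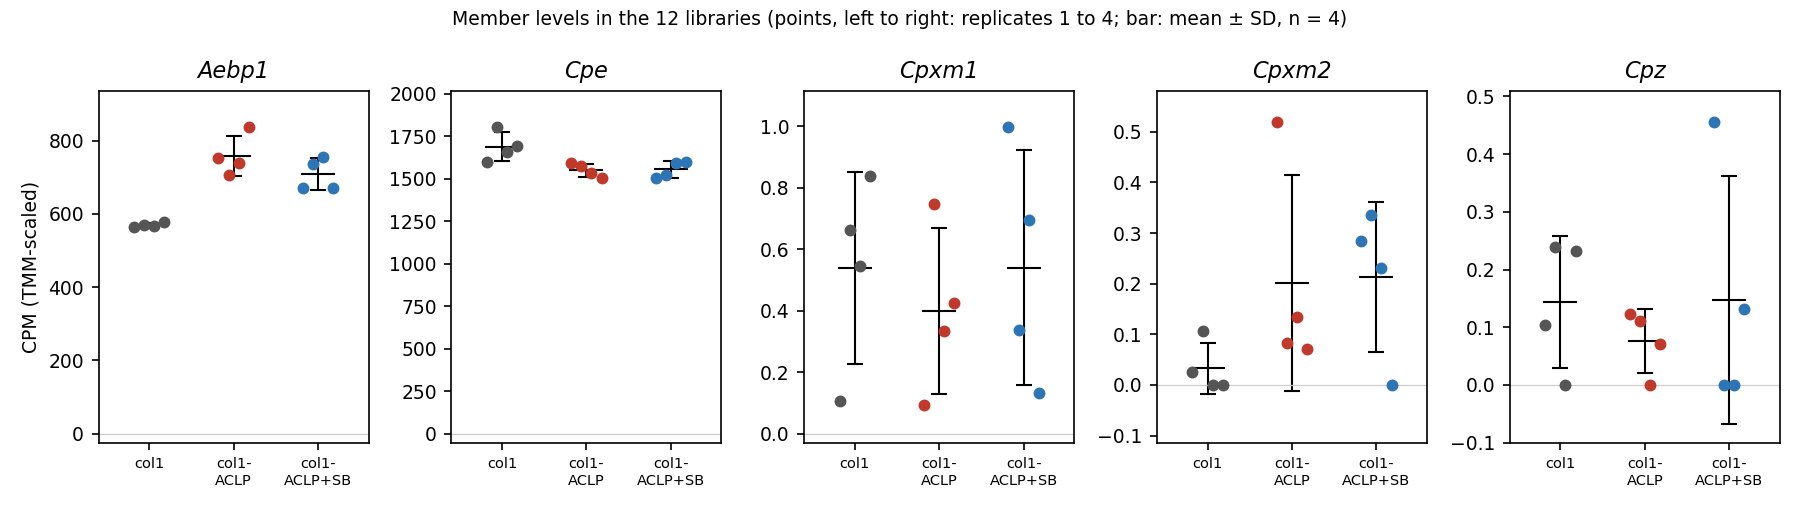
TMM-scaled CPM of the 5 members, with 1 point per library (replicates 1 to 4 from left to right in each group) and bars for the mean ± SD of 4 libraries; each panel has its own axis. Aebp1 rises from 569 CPM on col1 to 759 and 709 CPM in the groups with ACLP, Cpe runs from 1687 to 1549 and 1554 CPM, and Cpxm1, Cpxm2 and Cpz stay under 1 CPM.

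The replicates were tight on col1, with a coefficient of variation of 1.13%, and wider on col1-ACLP (7.30%) and col1-ACLP+SB (6.25%). The highest library, col1-ACLP replicate 4, was also the highest for Col5a1 and Cspg4. Without it the log2FC of Aebp1 was 0.37, and without col1 replicate 2 it was 0.42. It lay between 0.36 and 0.44 under all 20 alternatives to the processing, with an adjusted p of at most 7.48e-06 in each. Fewer cells of a type and less RNA per cell cannot be told apart in bulk RNA, and the part that the mesenchymal markers above, of which 2 rose and 2 fell, have in the rise of Aebp1 was not tested.

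Aebp1 was still higher than on col1 when ALK5 was inhibited. Its level in col1-ACLP+SB was 671.3, 735.7, 756.7 and 670.6 CPM, 709 ± 44.3 on average, and no library overlapped with col1, as in 6.70% of all tested genes in this direction. The log2FC against col1 was 0.32 (standard error 0.0497, 95% interval 0.21 to 0.42, adjusted p = 6.39e-05, same edgeR test), and it stayed called under all 20 alternatives, between 0.28 and 0.34. Against col1-ACLP the libraries overlapped, and the difference was -0.098 with an interval from -0.20 to 0.0041 (adjusted p = 0.42, same edgeR test). The interval holds both 0 and a decrease, so an effect of the inhibitor on Aebp1 was neither shown nor shown to be absent.

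Cpe moved the other way, by less. It was at 1598, 1802, 1655 and 1692 CPM on col1 and at 1590, 1573, 1532 and 1502 CPM on col1-ACLP, so that the groups did not overlap, as in 10.3% of all tested genes in this direction, although col1 replicate 1 lay close to the highest col1-ACLP library. The means were 1687 ± 86.0 and 1549 ± 39.5 CPM (SD, n = 4), a log2FC of -0.12 (standard error 0.0397, 95% interval -0.20 to -0.041, adjusted p = 0.0316, same edgeR test). Cpe fell by 8.17%. The call was lost without col1 replicate 2, the highest library, where the log2FC was -0.089 (adjusted p = 0.148), and also without col1 replicate 4 (0.0679), col1-ACLP replicate 3 (0.0855) or col1-ACLP replicate 4 (0.0808), with no filter on low counts (0.0918) and with the replicate number in the model (0.0516), all adjusted p-values of the edgeR test.

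In col1-ACLP+SB, Cpe was at 1502, 1523, 1591 and 1600 CPM, and its highest library passed the lowest of col1. The log2FC against col1 was -0.12 (adjusted p = 0.0645, same edgeR test), and it passed the threshold under 5 alternatives, among them without col1 replicate 1 (adjusted p = 0.0324) and without col1-ACLP replicate 4 (0.0486). Against col1-ACLP it was 0.0047, with an interval from -0.077 to 0.087 (adjusted p = 0.99). The ratio of Aebp1 to Cpe in FPKM was 0.217 ± 0.0099 with collagen alone, 0.315 ± 0.0298 with ACLP and 0.293 ± 0.0187 with ACLP and inhibitor (SD, n = 4), and without col1 replicate 2 the first of these was 0.222 ± 0.0041 (SD, n = 3).

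Cpxm1 was sparse and uneven within every group. Its counts were 4, 25, 18 and 36 in col1, 3, 27, 10 and 12 in col1-ACLP and 35, 10, 36 and 4 in col1-ACLP+SB. The groups overlapped throughout, and the log2FC of col1-ACLP against col1 was -0.42 with an interval from -1.93 to 1.08 (adjusted p = 0.778, same edgeR test). Leaving out col1 replicate 2 gave -0.31 (adjusted p = 0.859, edgeR). No difference was detectable at this spread between replicates, where the biological coefficient of variation fitted by edgeR was 0.637 for Cpxm1, against 0.0571 for Aebp1 and 0.0512 for Cpe. In the reference annotation an antisense lncRNA, Gm74705, overlaps Cpxm1, and reads of the pair cannot be told apart without strand.

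Cpxm2 and Cpz did not pass the filter on low counts and were not tested with all 12 libraries. Cpxm2 had 1, 4, 0 and 0 counts in col1, 17, 3, 4 and 2 in col1-ACLP and 10, 10, 12 and 0 in col1-ACLP+SB. Its levels overlapped between groups, and it lies within the span that the table gives to Fgfr2 on the same strand (4645 counts over all libraries), so reads of the 2 genes may have been shared. With no filter on low counts, its log2FC was 2.50 for col1-ACLP against col1 (adjusted p = 0.322, edgeR) and 2.57 for col1-ACLP+SB against col1 (0.375). It passed the filter when col1 replicate 3, col1-ACLP replicate 3 or 4 or col1-ACLP+SB replicate 4 was left out, with a log2FC on col1-ACLP against col1 from 2.15 to 2.77 (adjusted p from 0.175 to 0.340, edgeR). With 2 col1 libraries at 0, these fitted values depend on the prior count. Cpz had 4, 9, 0 and 10 counts in col1, 4, 4, 0 and 2 in col1-ACLP and 16, 0, 0 and 4 in col1-ACLP+SB, and its groups overlapped too, with a log2FC of -0.89 on col1-ACLP against col1 with no filter (adjusted p = 0.804, edgeR).

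Of the 3 tested members, 1 rose and 1 fell on col1-ACLP against col1, where 9.52% of all tested genes rose and 8.41% fell. Without col1 replicate 2, 1 member rose and 0 fell. On col1-ACLP+SB against col1, 1 of 3 rose and 0 fell, where 9.13% of all tested genes were called (4.60% higher, 4.54% lower) and 6.32% had every treated library below col1. Between col1-ACLP+SB and col1-ACLP, 0 of 3 were called by edgeR, DESeq2 or limma-voom and 0 had an unadjusted p under 0.05 in edgeR, where 1.48% of all tested genes were called and 12.8% had such an unadjusted p. None of the members passed the adjusted p-value together with the log2FC of 0.58, which 4.97%, 2.28% and 0.128% of all tested genes did in the 3 comparisons.

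Among the other M14 carboxypeptidases followed here, 9 were tested and 1 was called, on col1-ACLP against col1, where 17.9% of all tested genes were. Cpa1 fell on col1-ACLP, from 8.00 to 5.72 CPM (log2FC -0.48, adjusted p = 0.0345, edgeR), and its call was lost in 7 of 20 alternatives, including without col1 replicate 1, 2 or 4 or col1-ACLP replicate 1 or 4 (adjusted p from 0.0558 to 0.116). Cpd, the closest in function to Cpe, was at 168 CPM with collagen alone, 186 with ACLP and 166 with ACLP and inhibitor, and its log2FC of 0.15 on col1-ACLP against col1 had an interval from 0.02 to 0.27 (adjusted p = 0.109, edgeR). It passed the threshold in col1-ACLP+SB against col1-ACLP only without col1-ACLP+SB replicate 3, where the log2FC was -0.24 (adjusted p = 0.0309, edgeR), against -0.16 (0.212) with it.

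**Figure D3:**
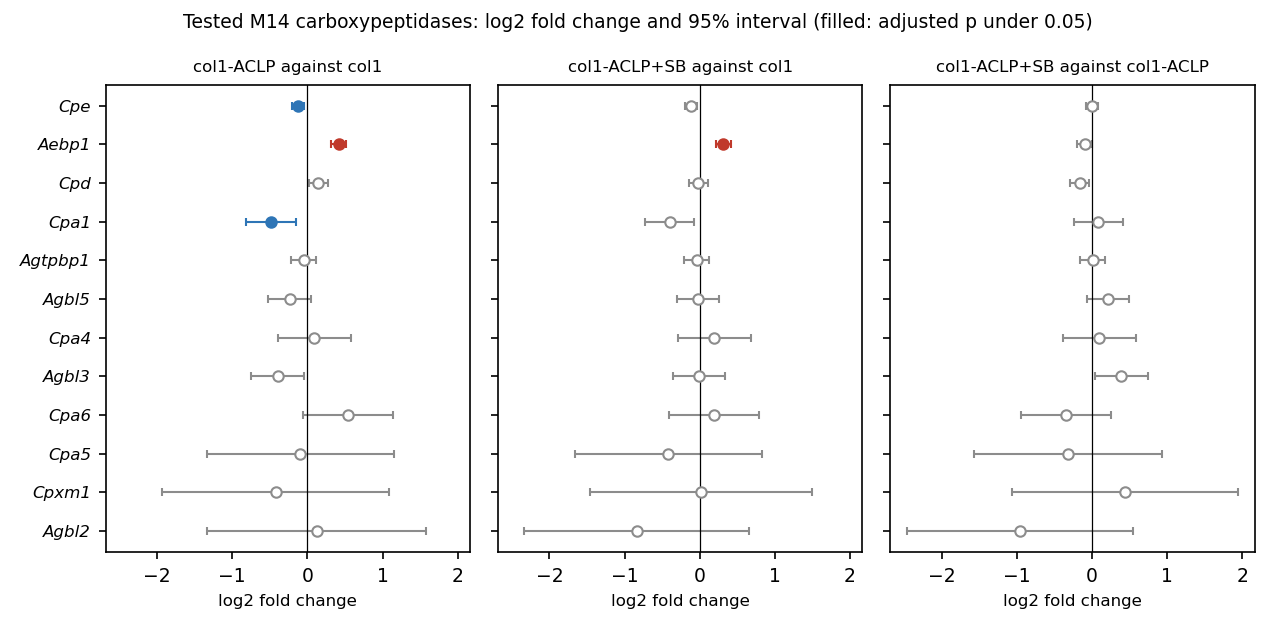
log2FC and 95% interval of 12 tested M14 carboxypeptidases in the 3 comparisons, from the highest level at the top to the lowest; filled points passed an adjusted p of 0.05 (red higher, blue lower). Aebp1 is higher in both comparisons with col1 (0.41 and 0.32), Cpe and Cpa1 are lower on col1-ACLP (-0.12 and -0.48), and the intervals widen towards the low genes.

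Among the partners of Cpe in prohormone processing, 6 of 11 were tested. On col1-ACLP against col1, 0 of the 6 were called by edgeR with all libraries, where 17.9% of all tested genes were, and 0 without col1 replicate 2. In the fit of all libraries, 2 of the 6 had an unadjusted p under 0.05. The median log2FC of the 6 was 0.06. The convertases Pcsk1 and Pcsk2, which act before Cpe in endocrine cells, had 2 and 6 counts over all libraries, Scg5, a chaperone of Pcsk2, had 23, and Pcsk1n had 0. Pcsk4, a subtilisin-like protease best known in germ cells, averaged 6.03 CPM with collagen alone and 4.02 CPM with ACLP (log2FC -0.58, adjusted p = 0.0523, edgeR). It passed the threshold with DESeq2 (0.0342), with library size alone (0.0354) and without col1 replicate 3 (0.0233), col1-ACLP replicate 3 (0.0204) or col1-ACLP+SB replicate 2 (0.0476, all adjusted p). Other subtilisin-like proteases of the list included Furin, at 132 CPM on col1-ACLP (log2FC 0.10, adjusted p = 0.26), and Pcsk6, at 67.3 CPM (0.19, adjusted p = 0.219, both edgeR), which was called without col1 replicate 4 (0.33, adjusted p = 0.00631). Pam, which amidates peptides after Cpe has trimmed them, fell on col1-ACLP+SB against col1 (log2FC -0.14, adjusted p = 0.0369, edgeR), where 9.13% of all tested genes were called. The call of Pam was lost without any of col1 replicates 1, 2 and 4, col1-ACLP replicates 1 and 3 and col1-ACLP+SB replicates 1 and 2 (adjusted p from 0.0514 to 0.151). It was also lost with no filter on low counts (0.0759), with only the groups compared (0.0501) and with the replicate number in the model (0.0617).

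Other genes of the matrix disorder that AEBP1 belongs to moved with Aebp1 in part. Of 19 tested genes linked to forms of Ehlers-Danlos syndrome, 8 rose and 2 fell on col1-ACLP against col1 (over all tested genes, 9.52% rose and 8.41% fell), with a median log2FC of 0.14 against -0.0099 over all tested genes. Without col1 replicate 2 the counts were again 8 and 2. Col5a1 and Col5a2, the chains of collagen V, which sets the diameter of collagen I fibrils, rose by 0.93 (adjusted p = 1.26e-11) and 0.86 (2.87e-13). Col1a2 rose by 0.65 (9.79e-12) and Plod1, a lysyl hydroxylase of collagen, by 0.65 (1.11e-10). Col1a1, Col12a1, Dse and Zfp469 made up the rest of the 8, all by edgeR with Benjamini-Hochberg adjustment.

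**Figure D4:**
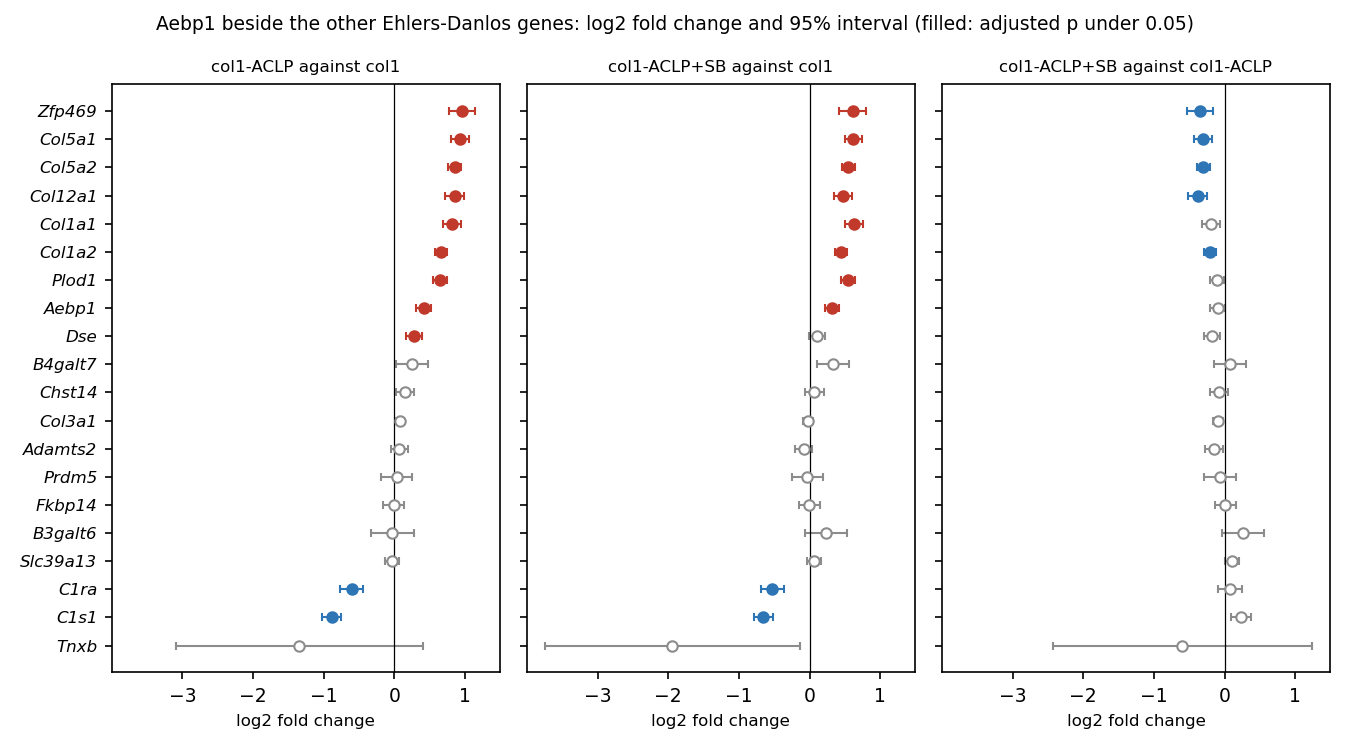
log2FC and 95% interval of Aebp1 and the 19 other Ehlers-Danlos genes in the 3 comparisons, sorted by col1-ACLP against col1; filled points passed an adjusted p of 0.05 (red higher, blue lower). Aebp1 (0.41) sits below Plod1 and Col1a2 (both 0.65) and above Dse (0.28), and C1ra and C1s1 are lower.

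The 2 genes that fell were C1ra and C1s1, proteases of the complement system, by 0.60 and 0.89 on the log2 scale. Col3a1, the collagen III gene of the vascular form, had a log2FC of 0.07 (adjusted p = 0.154, edgeR). With ALK5 inhibited, 7 of the 19 were higher and 2 lower than on col1, against 4.60% and 4.54% of all tested genes. Against col1-ACLP, where 1.48% of all tested genes were called, 5 fell (Col5a1, Col5a2, Col1a2, Col12a1 and Zfp469), from -0.21 for Col1a2 to -0.38 for Col12a1, where Aebp1 had -0.098. The call of Zfp469 there was lost without col1 replicates 3 or 4, col1-ACLP replicates 2, 3 or 4 or col1-ACLP+SB replicates 1, 3 or 4 (adjusted p from 0.0506 to 0.200, edgeR). It was also lost with library size alone (0.0548), with only the groups compared (0.0575) and with the replicate number in the model (0.0738). Col1a1 was called there with no filter on low counts (adjusted p = 0.000233) and without col1-ACLP replicate 2 (0.0403) or col1-ACLP+SB replicate 2 (0.0136), and Dse by DESeq2 (0.0351) and without col1-ACLP+SB replicate 3 (0.0442). All 3 comparisons share libraries. Per Col1a1, itself one of the mesenchymal markers, the Aebp1 level in FPKM was 0.0774 ± 0.0010 with collagen alone, 0.0588 ± 0.0026 with ACLP and 0.0627 ± 0.0046 with ACLP and inhibitor (SD, n = 4), lower in both groups with ACLP. Without col1 replicate 2 it was 0.0778 ± 0.00075 with collagen alone (SD, n = 3).

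The 5 genes whose pattern over the 12 libraries was most like that of Aebp1 included 3 collagen genes. By Pearson's r of log2 CPM, the closest were Col1a2 (0.985), Rxra (0.984), Cspg4 (0.983), Col1a1 (0.983) and Col5a1 (0.982), with Spearman's rho from 0.860 to 0.979. Rxra encodes a nuclear receptor and Cspg4 a proteoglycan of pericytes and mesenchymal progenitors. With the group means removed, r was 0.865 to 0.973, in genes picked for their r over the same libraries. Over the 11 libraries without col1 replicate 2, with group means kept in, r was 0.979 to 0.984. The points share libraries and scaling, and the values are descriptions.

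**Figure D5:**
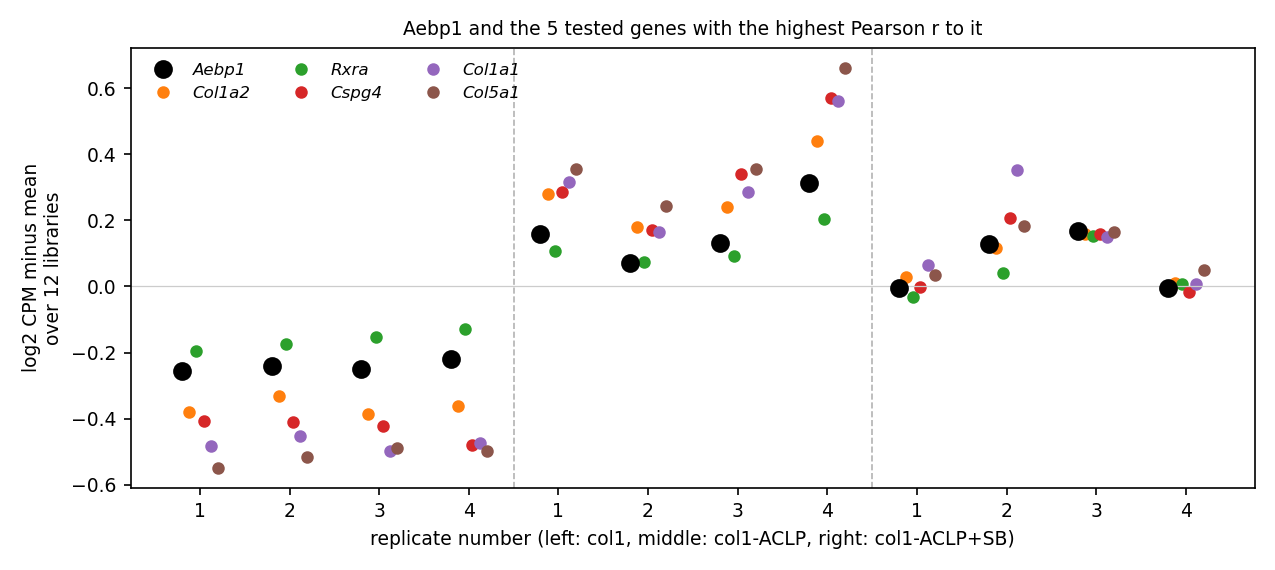
log2 CPM minus the gene's mean over 12 libraries for Aebp1 (large black points) and the 5 tested genes with the highest Pearson r to it, by library, with dashed lines between groups. All 6 genes are below their mean in the 4 col1 libraries, and all 6 have their highest value in col1-ACLP replicate 4.

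For Cpe the closest genes were Gm17552, Wfdc21, Dhrs1, Cd63-ps and Sirpa (r from 0.913 to 0.927, and 0.838 to 0.918 without col1 replicate 2), of which Cd63-ps is a pseudogene that may share reads with its parent. With group means removed, r was 0.831 to 0.924. Wfdc21 averaged only 0.573 CPM and Gm17552 4.93 CPM. For Cpxm1 the closest genes were Rab7b, Cox4i2, Gm18537, Nkap and Gm45441 (0.822 to 0.916), at counts of Cpxm1 as low as those above. Aebp1 and Cpe were related by an r of -0.73 (rho -0.64) over 12 libraries and by -0.11 once group means were removed. Under scaling by library size alone, 9 of these 15 genes were kept.

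The promoter of Aebp1 is shown because the gene rose. The window covers 300 bases around the annotated start (RefSeq, GRCm38.p6, chr11:5861616-5861915, + strand), and 4 of the 5 members had such an entry. Capitals mark matches to CAGAC, the core of SMAD binding sites, and to GGGCGG, the GC box, on either strand.
Aebp1: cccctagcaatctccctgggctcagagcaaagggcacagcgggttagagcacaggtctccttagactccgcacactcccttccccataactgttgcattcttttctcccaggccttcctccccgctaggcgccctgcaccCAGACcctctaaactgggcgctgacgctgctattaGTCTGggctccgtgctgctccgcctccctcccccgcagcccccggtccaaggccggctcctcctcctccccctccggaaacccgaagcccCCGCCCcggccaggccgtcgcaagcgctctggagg

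The window held 2 matches to CAGAC, which 49.6% of 32841 promoters of the same length hold at least once, and 1 to GGGCGG, held by 35.7%. It held no match to GGAATG (TEAD type, in 14.7% of promoters), TGANTCA (AP-1 type, 7.81%) or the CArG box of SRF (1.63%), on either strand. Its GC content was 66.3%, at percentile 84.4 of all promoters. The matches are letters in a window, and binding was not measured.

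Genes that share a domain with a member, or that have been linked to ACLP as receptor or mediator, changed in both directions. Of 12 tested discoidin domain genes, 2 rose and 3 fell on col1-ACLP against col1 (2 and 4 without col1 replicate 2), where 9.52% of all tested genes rose and 8.41% fell. Their median log2FC was -0.18. Dcbld2, a membrane protein, rose from 60.5 to 119 CPM (log2FC 0.98, adjusted p = 2.80e-11), and Edil3, a secreted integrin ligand, rose by 0.44 (2.64e-06). Nrp1 and Nrp2, co-receptors for semaphorins and VEGF, fell by 0.54 (1.89e-06) and 0.23 (0.00221), and Ddr2, the collagen receptor, fell by 0.25 (0.000383, all edgeR). With ALK5 inhibited, 2 were higher and 3 lower than on col1 (all tested genes: 4.60% and 4.54%), and Dcbld2 and Edil3 were lower than on col1-ACLP, by -0.35 (0.00554) and -0.24 (0.0348). The last call of Edil3 was lost without any of the 4 col1-ACLP libraries or col1-ACLP+SB replicates 1, 2 or 4 (adjusted p from 0.0586 to 0.139), and its call on col1-ACLP+SB against col1 (0.20, adjusted p = 0.0256) without col1 replicates 1, 3 or 4 or col1-ACLP+SB replicates 3 or 4 (0.0526 to 0.127). With library size alone both calls were lost (0.0644 and 0.0542). With the replicate number in the model the former was lost (0.0525, all edgeR).

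Of 17 tested genes with a frizzled-type domain like that of Cpz, 5 rose and 1 fell on col1-ACLP (5 and 0 without col1 replicate 2), beside the 9.52% and 8.41% of all tested genes. Their median log2FC was 0.10. Fzd8, which has been described as a receptor of ACLP in liver stellate cells, rose from 222 to 347 CPM (log2FC 0.65, adjusted p = 6.26e-10), and Fzd5 (0.72, 3.51e-05), Frzb, a secreted Wnt antagonist (0.72, 9.11e-05), and Fzd1 (0.24, 0.00229) rose too. The gene that fell was Sfrp2, a secreted modulator of Wnt signalling, from 3.25 to 1.46 CPM (log2FC -1.14, adjusted p = 0.0345), and it was also lower on col1-ACLP+SB than on col1 (-1.23, 0.0369). Both calls were lost without col1 replicates 2, 3 or 4, the first also without col1-ACLP replicates 1 or 4 and the second without col1-ACLP+SB replicates 2 or 4 (adjusted p from 0.0583 to 0.117, edgeR). The second was also lost with the replicate number in the model (adjusted p = 0.0509, edgeR). On col1-ACLP+SB against col1, 2 were higher and 1 lower, beside 4.60% and 4.54% of all tested genes, and Fzd8 was among the higher at 0.45 (6.00e-07, all edgeR). Against col1-ACLP 0 of 17 were called by edgeR, with 5 at an unadjusted p under 0.05, and Fzd8 had -0.19 (adjusted p = 0.059). Over all tested genes, 1.48% were called there and 12.8% had such an unadjusted p. Fzd8 was called there by DESeq2 (adjusted p = 0.0123), by limma-voom (0.0431), by edgeR with no filter on low counts (0.0191) and without col1-ACLP+SB replicate 3 (0.0435), and Fzd1 by DESeq2 (0.0154) and without that library (0.0332).

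Of the 9 receptors and mediators linked to ACLP, all tested, 4 rose and 1 fell on col1-ACLP (all tested genes: 9.52% and 8.41%), with a median log2FC of 0.06. Besides Fzd8, the Wnt co-receptor Lrp6 rose by 0.23 (adjusted p = 0.0037), the β1 integrin gene Itgb1 by 0.18 (0.00261) and Smad2 by 0.22 (0.0082), and Smad3 fell by 0.35 (1.33e-05, all edgeR). Tgfbr1, which encodes ALK5, and Tgfbr2 had log2FC values of -0.063 (adjusted p = 0.604) and 0.064 (0.355). On col1-ACLP+SB against col1, Fzd8 was higher and Smad3 lower, beside 4.60% and 4.54% of all tested genes. Against col1-ACLP, 0 of 9 were called by edgeR, where 1.48% of all tested genes were. An unadjusted p under 0.05 was found there for 3 of the 9 and for 12.8% of all tested genes. Lrp6 was called there by DESeq2 (adjusted p = 0.0208), by edgeR with no filter (0.0130) and without col1-ACLP+SB replicate 3 (0.0216). Without col1 replicate 2 the counts of this list were the same in all 3 comparisons.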

How the data were processed

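Poly(A) RNA of 12 libraries was sequenced, and the authors mapped paired-end reads with HISAT2 and deposited the raw read counts of each gene, not normalized. The study's methods name GRCm39, the submitters' processing notes name mm10, and the deposited coordinates fit GRCm39. The counting tool and its strand setting are not given in the sources used here. Groups follow the sample titles. The study calls the replicates biological, with no word on separate cultures, so p-values measure the spread between these libraries.

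The count test was that of edgeR 4.0.16 (R 4.3.3): filterByExpr (16465 genes kept, 40283 dropped), TMM factors from 0.966 to 1.02, and a quasi-likelihood fit of all 12 libraries with group as the only term, which gave a square root of common dispersion of 0.153. A gene rose or fell when its Benjamini-Hochberg adjusted p was under 0.05. The log2FC of 0.58 comes from the study's methods, which used DESeq2. The procedure was tested on simulated counts. CPM and FPKM were computed here with TMM scaling and the deposited gene lengths. Counting error was not separated from other error, as reads carry no molecular identifiers.

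Members and lists were chosen with earlier results of these data known. Named were every member with its 5 most similar genes (log2 CPM, prior count 2), every M14 carboxypeptidase (1 gene is not reported here), up to 4 genes per list with the smallest adjusted p under 0.05, and the genes of a list that complete a small count. Ddr2, Smad2, Tgfbr1, Tgfbr2, Furin, Pcsk6, Col3a1, C1ra, C1s1, Pcsk4, Sfrp2, Pdgfra, Pdgfrb, Cd68, Chgb, Syp, Scg2, Scg5, Pcsk1, Pcsk2 and Pcsk1n were named after their values were seen. Lists of M14 genes, carboxypeptidase inhibitors (Lxn the 1 tested of 2, not called), prohormone processing, discoidin and frizzled-type domains, Ehlers-Danlos genes, and receptors and mediators were used. Coding windows were aligned with Biopython 1.88. Alternatives were RLE factors, library size alone, no filter, a mean of at least 10 counts, only the groups compared, a replicate block, DESeq2 1.42.0, limma-voom (limma 3.58.1) and each library left out.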

Additional observations from a re-analysis of the deposited data

Results flagged for a closer look

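Cpxm2 in col1-ACLP replicate 1 was at 0.519 CPM (17 counts), far from the other 3 libraries of its group, which lay between 0.0709 and 0.134 CPM (2 to 4 counts). Its gap to the nearest of them, as a share of the range, was 0.86, above Dixon's critical value for 4 libraries. It was the only 1 flagged of the 15 combinations of member and group, and chance flags about 1 in 20. Cpxm2 lies within the span of Fgfr2 on the same strand, and the part of that overlap in the value was not tested.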

How the results depend on the processing

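Aebp1 kept its direction and its call under all 20 alternatives in both comparisons with col1 and was called in none between col1-ACLP+SB and col1-ACLP (-0.13 to -0.049). The count of members called on col1-ACLP against col1 was 2 and became 1 with no filter on low counts and with the replicate block, and ran from 1 to 2 with each library left out. On col1-ACLP+SB against col1 it was 1 and became 2 with library size alone, DESeq2 and limma-voom, and ran from 1 to 2 with each library left out. These counts moved with Cpe alone. Of col1-ACLP+SB against col1-ACLP, the 243 genes called became 428 with no filter and 582 with DESeq2 and ran from 98 (without col1-ACLP replicate 4) to 282 with a library left out. Those past 0.58, 21 of them, became 46 and 39 and ran from 10 to 29, and the 7 listed genes called became 11 and 12 and ran from 5 to 11. The cause was not tested. Scaling by library size alone moved the share of higher genes among those called from 53.1% to 38.3% on col1-ACLP against col1 and from 38.7% to 59.0% on col1-ACLP+SB against col1-ACLP. For 38 other named genes, 2174 of 2280 values kept their side of the threshold, 77 lost it, 29 gained it and 0 reversed. Same-numbered replicates did not deviate together (correlations from -0.037 to 0.036), and the numbers were not taken as pairs. The replicate block gave Cpe a log2FC of -0.12 (adjusted p = 0.0516, edgeR) and Aebp1 0.41. Cpxm2 and Cpz had at most 17 counts in a library and were under the filter, and Cpxm1 (at most 36) was uneven between replicates.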

Other observations

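The low counts of the table were even more often than odd. Of counts from 1 to 20, between 59.3% and 63.8% were even per library, and of counts from 100 to 1000 between 48.9% and 51.1%. Cpxm1, Cpxm2 and Cpz had 29 counts above 0, of which 21 were even. How paired reads were counted is not given in the sources used here, and its part in these shares was not tested.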
